A study of Mus musculus with 6 samples.

Results

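A set of 10 genes that mark entry into the lymphoid lineages was followed in myeloid progenitors, namely Il7r, Dntt, Rag1, Ebf1, Pax5, Cd79a, Igll1, Vpreb1, Gata3 and Tcf7. The 10 genes were looked up by symbol among the 34199 gene symbols of the count files, and each was found. Of the 10, 8 passed the filter on low counts that left 12460 genes for testing, and Pax5 and Gata3 did not. The comparison addressed lymphoid priming, the low expression of lymphoid genes in cells of another path, and the activation of genes foreign to the lineage after loss of the histone chaperone CAF-1.

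The cells were HOXA9-immortalized granulocyte-macrophage progenitors (iGMPs), derived from C57Bl/6 mouse bone marrow and labelled Lys-GFP-ER-HoxA9 cells. They carried a lysozyme-driven GFP reporter and a HOXA9 transcription factor fused to the estrogen receptor, and were grown with stem cell factor and estradiol. RNA-seq was available for 3 groups of 2 libraries, all at 24 h, which were control cells given IPTG, CAF-1 OFF cells in which IPTG induced an shRNA targeting Chaf1b (a CAF-1 subunit), and HOXA9 OFF cells washed free of estradiol. The study used clonal lines with the hairpin and others with a control vector. The labels did not say which clones gave these libraries or whether HOXA9 OFF cells received IPTG. Estradiol may therefore not be the one difference between HOXA9 OFF and control. In the same way, clone may differ between CAF-1 OFF and control besides the knockdown.

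Between 16773560 and 25170898 reads per library were assigned to genes, and 3 counts corresponded to 0.118 to 0.182 CPM (reads of a gene scaled to a common library depth). The targeted gene Chaf1b was at 97.5 ± 10.7 CPM in the control libraries (SD, n = 2 here and below), at 14.9 ± 4.01 CPM after its knockdown and at 63.0 ± 2.30 CPM after estradiol withdrawal. All 11 of 11 markers of granulocyte-macrophage progenitors, among them Mpo, Elane, Cebpa and Kit, were above 3 counts in every library, with a summed level of 11780 to 17500 CPM. Their levels were not the same in the 3 groups. In HOXA9 OFF against control, 3 of the 11 fell and 3 rose (edgeR FDR under 0.05 and at least 1.5-fold), and in CAF-1 OFF against control 0 were called. Cd34 (a surface protein of stem and progenitor cells), Kit (the stem cell factor receptor) and Ctsg (a granule protease) were 3.64-fold, 2.23-fold and 1.6-fold lower in HOXA9 OFF, and Csf3r (the G-CSF receptor), Fcgr3 (an Fc receptor) and Sfpi1 (PU.1) were 2.69-fold, 3.10-fold and 2.92-fold higher. Of 12 markers of mature lymphocytes, 2 to 5 were above 3 counts in a library, their summed level was 1.11 to 5.196 CPM, and Cd3e, Cd3g, Cd8a and Ncr1 had 0 counts in all 6 libraries.

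Lymphoid progenitors arise from multipotent cells that begin to transcribe lymphoid genes before they lose other options. Signals through the interleukin-7 receptor (Il7r) and the transcription factors Ebf1 and Pax5 set up the B cell program, whereas Gata3 and Tcf7 act early in the T cell program. The Rag1 and Rag2 recombinase cuts antigen receptor genes and Dntt (terminal transferase) adds nucleotides at the joins, and the first rearranged heavy chain is then tested in a pre-B cell receptor built with the surrogate light chain (Igll1 and Vpreb1) and the signalling subunit Cd79a.

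The 10 genes spanned a wide range of levels in control iGMPs. Per kilobase of merged exons, Igll1 was highest at 110.3 CPM per kb, followed by Ebf1 at 9.87, Tcf7 at 5.81 and Cd79a at 2.11 CPM per kb. Vpreb1, Dntt and Rag1 followed at 0.776, 0.738 and 0.658 CPM per kb, and their order was within the spread between the 2 control libraries. Il7r, Gata3 and Pax5 came last at 0.088, 0.024 and 0.020 CPM per kb, levels at or near the counting floor. Among the 12460 tested genes, the control CPM of Igll1 stood at the 93.3 percentile and that of Ebf1 at the 77.9 percentile, whereas Dntt stood at the 14.6 percentile.

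**Figure D1:**
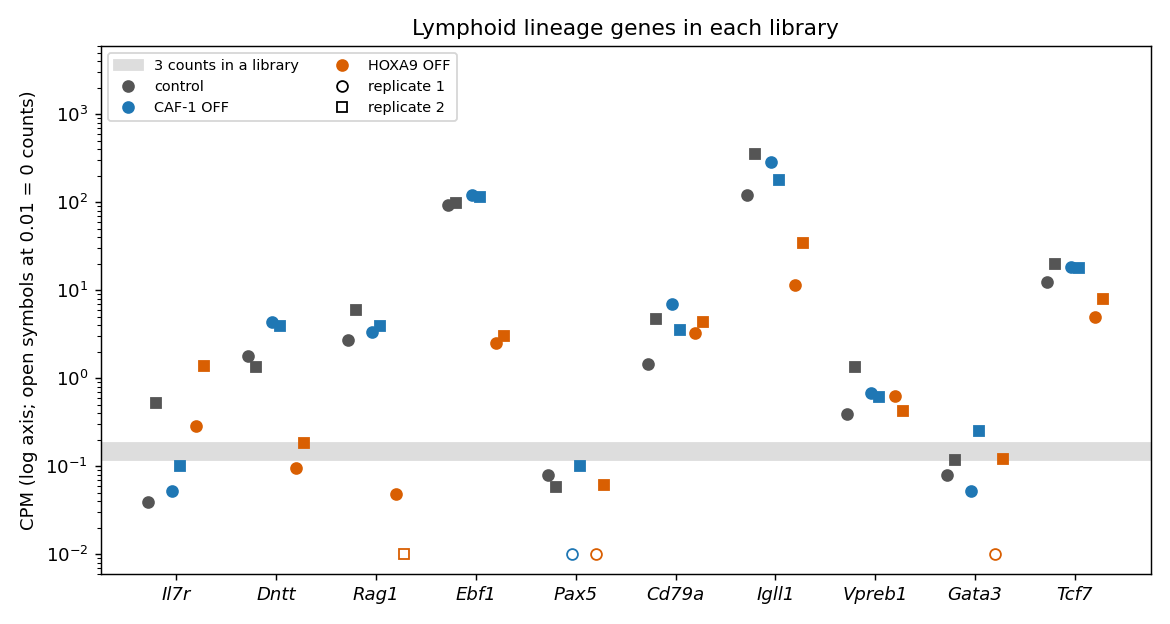
Level of each of the 10 lymphoid lineage genes in each library, in CPM on a log axis, with control in grey, CAF-1 OFF in blue and HOXA9 OFF in orange, circles for replicate 1 and squares for replicate 2. The grey band marks 3 counts in a library, and open symbols at 0.01 mark 0 counts. Ebf1, Igll1, Dntt, Rag1 and Tcf7 lie lower in both HOXA9 OFF libraries than in the other 4 libraries, whereas Pax5 lies below the band throughout.

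In CAF-1 OFF against control, 0 of the 8 tested genes were called (edgeR quasi-likelihood test, at least 1.5-fold and FDR under 0.05), where 0.0321% of all tested genes were called in either direction. At an unadjusted p under 0.05 were 2 of the 8, Dntt and Ebf1, where 10.7% of all tested genes were, and DESeq2 and the edgeR exact test also called 0 of them. Their median log2 fold change was 0.07, against -0.0044 over all tested genes. In HOXA9 OFF against control, 5 of the 8 were called, all lower in HOXA9 OFF (Ebf1, Rag1, Dntt, Igll1 and Tcf7), where 22% of tested genes were called in either direction and 8.97% were called lower. The median log2 fold change of the 8 was -2.37, against -0.0035 over all tested genes. The changes of Cd34, Kit, Ctsg, Csf3r, Fcgr3 and Sfpi1 given above were in the same libraries, and their part in these falls was not tested. In CAF-1 OFF against HOXA9 OFF the same 5 genes were called, all higher in CAF-1 OFF, where 22.1% of tested genes were called and 9.56% were called higher. The comparisons share their libraries pairwise and are not independent, and Rag1 and Dntt passed the low-count filter through control and CAF-1 OFF alone. In bulk samples such as these, fewer cells expressing a gene and less RNA per cell cannot be told apart.

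**Figure D2:**
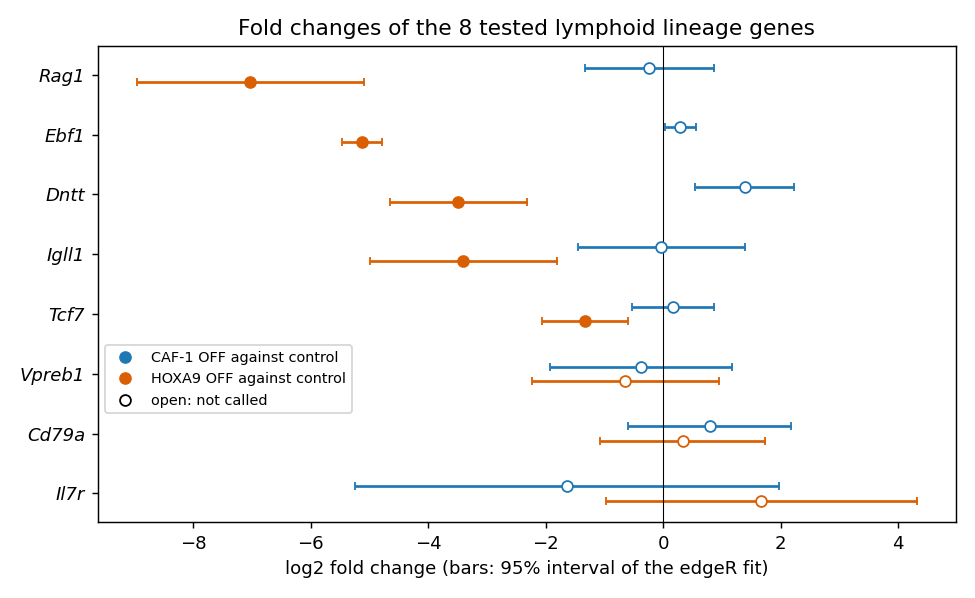
Log2 fold changes of the 8 tested lymphoid lineage genes in CAF-1 OFF (blue) and HOXA9 OFF (orange) against the same control libraries, with bars for the 95% interval of the edgeR fit, filled where called and open where not. Rag1, Ebf1, Dntt, Igll1 and Tcf7 are filled in HOXA9 OFF, with log2 fold changes from -7.03 to -1.34, and no gene is filled in CAF-1 OFF. The Rag1 value rests on 1 count in HOXA9 OFF.

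Among the transcription factors, Ebf1, which specifies the B lineage and opens its chromatin, gave the most precise difference. The gene lies on chr11:44430819-44821593 (NCBIM37, the assembly of mm9). Ebf1 was at 94.0 and 98.5 CPM in the control libraries, 120.9 and 115.1 CPM in CAF-1 OFF, and 2.51 and 3.03 CPM in HOXA9 OFF. Both HOXA9 OFF libraries thus lay far below the other 4, and both CAF-1 OFF libraries lay a little above both control libraries. In HOXA9 OFF, Ebf1 fell by 5.12 ± 0.14 on the log2 scale (SE, edgeR FDR 5.6e-05), a 34.9-fold lower level and the 37th largest fall of the 12460 genes. In CAF-1 OFF the difference from control was 0.29 ± 0.11 (edgeR FDR 0.411), with a 95% interval of 0.03 to 0.55, and it was not called. Its relatives Ebf2, Ebf3 and Ebf4 had at most 1 count in any library.

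Tcf7 encodes TCF1, a factor that Notch signalling induces in early T cell progenitors and that acts in other blood progenitors as well. Tcf7 (chr11:52065873-52096681) was at 12.3 and 20.1 CPM in control, 18.4 and 17.9 CPM in CAF-1 OFF, and 4.97 and 7.88 CPM in HOXA9 OFF. The HOXA9 OFF libraries were the lowest, and the CAF-1 OFF libraries lay between the control libraries. Tcf7 fell by 1.34 ± 0.31 in HOXA9 OFF (edgeR FDR 0.0189), and the difference between CAF-1 OFF and control was 0.17 ± 0.29 (95% interval -0.53 to 0.87, edgeR FDR 0.884). Without control replicate 2 the HOXA9 OFF value was -0.95 with an FDR of 0.0928, and without HOXA9 OFF replicate 1 it was -1.04 with an FDR of 0.0965, so the call rested on those libraries. Without HOXA9 OFF replicate 1 the call against CAF-1 OFF was lost too, at 1.21 with an FDR of 0.0665.

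Pax5, which commits cells to the B lineage downstream of Ebf1, was silent by the rule of at most 3 counts in every library. Pax5 (chr4:44544017-44724318) had 2 and 1 counts in control, 0 and 2 in CAF-1 OFF, and 0 and 1 in HOXA9 OFF. Gata3, required for T cell and innate lymphoid development, had 2 and 2 counts in control, 1 and 5 in CAF-1 OFF, and 0 and 2 in HOXA9 OFF. Gata3 (chr2:9778705-9811661) was above 3 counts in 1 of the 6 libraries. A difference between groups was not detectable at this depth for either gene, and both have exons that overlap other annotated transcripts, Gm12462 for Pax5 and 9230102O04Rik and Gm13256 for Gata3. In the same libraries Ebf1 had 2392 and 1697 counts in control.

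The recombination genes Rag1 and Dntt were low in control and CAF-1 OFF and had 3 counts or fewer in each HOXA9 OFF library. Rag1 (chr2:101478439-101489658) had 69 and 103 counts in control, 65 and 78 in CAF-1 OFF, and 1 and 0 in HOXA9 OFF. The 4 control and CAF-1 OFF libraries were all well above this floor, and both HOXA9 OFF libraries were below it. Against the single count in HOXA9 OFF, control was 150-fold higher (95% counting interval 26.6 to 5960) and CAF-1 OFF was 136-fold higher (24.1 to 5430). The edgeR FDR was 0.0019 for HOXA9 OFF against control and 0.899 for CAF-1 OFF against control, where the log2 difference was -0.24 ± 0.46 (95% interval -1.33 to 0.86). Rag1 shares 80 bases of exon on the same strand with B230118H07Rik, which had 27 to 45 counts in control and CAF-1 OFF and 1 and 0 counts in HOXA9 OFF.

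Its partner Rag2, from the adjacent gene, was present at a higher level. Rag2 was at 55.6 ± 18.7 CPM in control and 52.1 ± 11.0 CPM after CAF-1 loss, against 0.829 ± 0.285 CPM in HOXA9 OFF, where it fell by 6.08 ± 0.38 (edgeR FDR 0.000322). Per kilobase of exon, Rag2 was 21.6 to 34.2 times the level of Rag1 in the 4 control and CAF-1 OFF libraries and 25.1 times in the HOXA9 OFF library that held a Rag1 read. Rag2 also overlaps an exon of B230118H07Rik, by 208 bases on the opposite strand.

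Dntt (chr19:41103765-41134013) had, of the 8 tested genes, the largest difference toward higher expression in CAF-1 OFF against control. Dntt had 46 and 23 counts in control, 84 and 78 in CAF-1 OFF, and 2 and 3 in HOXA9 OFF, which correspond to 1.81 and 1.34, 4.36 and 3.95, and 0.096 and 0.182 CPM. The 3 groups did not overlap, with CAF-1 OFF highest and HOXA9 OFF lowest. CAF-1 OFF was 2.62-fold above control, a log2 difference of 1.39 ± 0.35 (95% interval 0.55 to 2.23), and after adjustment over all tested genes it was not called (edgeR FDR 0.273). Over the alternatives tried, the FDR of this difference ranged from 0.0551 with the edgeR exact test to 0.831 without control replicate 2. In HOXA9 OFF, Dntt fell by 3.49 ± 0.49 (edgeR FDR 0.0035), and its summed counts were 12-fold lower than in control (95% counting interval 4.92 to 38.2) and 30.9-fold lower than in CAF-1 OFF (13 to 96.5).

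The surrogate light chain genes Igll1 (λ5) and Vpreb1 are neighbours on chromosome 16, and their products pair in the pre-B cell receptor. Igll1 (chr16:16860764-16864078) was at 121.1 and 356.1 CPM in control, 284.4 and 181.1 CPM in CAF-1 OFF, and 11.4 and 34.1 CPM in HOXA9 OFF. Replicates of a group differed up to 2.99-fold, and even so both HOXA9 OFF libraries lay below the other 4. Igll1 fell by 3.40 ± 0.67 in HOXA9 OFF (edgeR FDR 0.011), whereas the difference between CAF-1 OFF and control was -0.03 ± 0.60, with a wide 95% interval of -1.45 to 1.39 (FDR 0.994). Vpreb1 (chr16:16868495-16870936) was far lower, with 10 and 23 counts in control, 13 and 12 in CAF-1 OFF, and 13 and 7 in HOXA9 OFF. These ranges overlapped, and Vpreb1 was called in neither comparison with control (-0.38 ± 0.65 in CAF-1 OFF, FDR 0.883, and -0.65 ± 0.67 in HOXA9 OFF, FDR 0.506).

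Per kilobase of exon, Igll1 was 137 to 217 times the level of Vpreb1 in the control and CAF-1 OFF libraries, and 9.34 and 41.3 times in the HOXA9 OFF libraries. Vpreb1 and Vpreb2 are near-identical copies, with 97.9% identity over 429 coding bases and a longest shared run of 196 bases. Reads that align to both places are left out by the counting, so Vpreb1 can be under-counted, and the absence of Vpreb2 reads above 3 counts does not show that it was silent. Vpreb1 also overlaps 108 bases of exon of Top3b on the opposite strand, a gene with 1973 to 3800 counts.

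**Figure D3:**
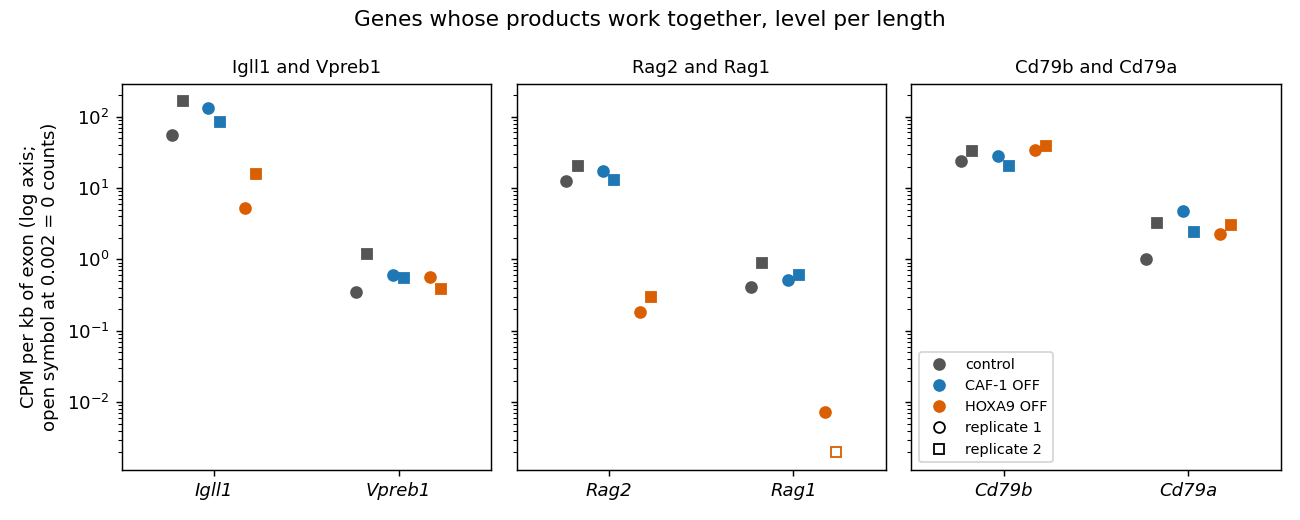
Levels per kilobase of merged exons, on a log axis, of 3 pairs of genes whose products work together, in each library, with control in grey, CAF-1 OFF in blue and HOXA9 OFF in orange, and circles and squares for replicates 1 and 2. In HOXA9 OFF, Igll1 is lower and Vpreb1 overlaps the other groups, Rag2 and Rag1 are both lower, and Cd79b and Cd79a are not lower. The open symbol at 0.002 is a library with 0 Rag1 counts.

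The promoters of Igll1 and Rag1 are shown because both genes were lower in HOXA9 OFF together with Ebf1, and because their windows held the most matches among the 12 promoter windows of the 10 genes to 4 motifs chosen after the values and sequences were seen. The windows are the 250 bases before the RefSeq start, read from the minus strand of NCBIM37, 5′ to 3′, at chr16:16864079-16864328 for Igll1 and chr2:101489690-101489939 for Rag1. Capitals mark matches on either strand to the motif of EBF factors (CCCNNGGG), the E-box bound by E proteins (CAGNTG), the RUNX motif (TGTGGT) and the core of HOX-PBX sites (TGATNNAT).
Igll1: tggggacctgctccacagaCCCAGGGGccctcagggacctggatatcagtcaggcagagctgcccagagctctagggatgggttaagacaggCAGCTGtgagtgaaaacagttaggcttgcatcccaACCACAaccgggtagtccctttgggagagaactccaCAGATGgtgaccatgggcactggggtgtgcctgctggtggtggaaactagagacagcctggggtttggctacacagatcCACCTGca
Rag1: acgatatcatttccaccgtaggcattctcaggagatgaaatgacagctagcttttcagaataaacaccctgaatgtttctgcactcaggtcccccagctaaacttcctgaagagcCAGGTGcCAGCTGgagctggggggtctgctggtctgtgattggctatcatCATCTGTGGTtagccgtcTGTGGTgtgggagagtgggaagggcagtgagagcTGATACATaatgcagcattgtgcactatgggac

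The Igll1 window held 1 EBF motif, 3 E-boxes and 1 RUNX motif, and the Rag1 window held 3 E-boxes, 2 RUNX motifs and 1 HOX-PBX core, with 1 E-box of Rag1 overlapping a RUNX motif. Of 32841 mouse promoter windows of this length, 11.8% held the EBF motif, 44.8% the E-box, 14% the RUNX motif and 7.69% the HOX-PBX core. No match to any of the 4 was found in the windows of Dntt, Pax5 and Gata3. A match describes the letters in the window, and binding was not measured here.

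Cd79a, the signalling subunit (Igα) of the pre-B and B cell receptors, differed little between groups relative to its replicate spread. Cd79a (chr7:25682400-25687216) was at 1.45 and 4.70 CPM in control, 7.01 and 3.49 CPM in CAF-1 OFF, and 3.28 and 4.37 CPM in HOXA9 OFF. The 3 groups overlapped. The log2 difference from control was 0.79 ± 0.58 in CAF-1 OFF (95% interval -0.60 to 2.18, edgeR FDR 0.688) and 0.33 ± 0.59 in HOXA9 OFF (95% interval -1.07 to 1.73, FDR 0.708). Its partner Cd79b (Igβ) was higher, at 5.77 to 24.3 times the level of Cd79a per kilobase of exon, with 41.1 ± 9.02, 34.5 ± 7.48 and 52.1 ± 5.30 CPM in control, CAF-1 OFF and HOXA9 OFF, and it was not called in any comparison.

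Il7r, the receptor chain for the cytokine that sustains lymphoid progenitors, had at most 23 counts in any library. Il7r (chr15:9435916-9459631) had 1 and 9 counts in control, 1 and 2 in CAF-1 OFF, and 6 and 23 in HOXA9 OFF. HOXA9 OFF libraries lay above both CAF-1 OFF libraries and overlapped control. The summed counts of HOXA9 OFF were 10.1-fold those of CAF-1 OFF (95% counting interval 3.14 to 52), a log2 difference of -3.31 ± 1.34 for CAF-1 OFF against HOXA9 OFF that was not called (edgeR FDR 0.107). It was called with a replicate block (FDR 0.035) and without an expression filter (FDR 0.0133). Against control the log2 difference was 1.67 ± 1.11 in HOXA9 OFF (FDR 0.299) and -1.64 ± 1.52 in CAF-1 OFF (FDR 0.753).

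The 2 control libraries differed in several of these genes. The CPM was over 1.5-fold higher in control replicate 2 than in replicate 1 for 6 of the 8 tested genes, namely Il7r, Rag1, Cd79a, Igll1, Vpreb1 and Tcf7, with ratios of 1.63 to 13.3, where 7.69% of all tested genes were. No gene of the 8 was over 1.5-fold higher in replicate 1, where 6.79% of tested genes were. In CAF-1 OFF, 1 gene was higher in replicate 2 and 2 in replicate 1, against 10.1% and 6.3% of tested genes. In HOXA9 OFF, 4 genes were higher in replicate 2 and 1 in replicate 1, against 8.54% and 5.47%. Some of these differences rest on very few counts. Il7r, with the ratio of 13.3, had 1 and 9 counts in control, and it had 1 and 2 in CAF-1 OFF. In HOXA9 OFF, Dntt had 2 and 3 counts and Rag1 had 1 and 0. Ebf1 and Dntt were the 2 tested genes whose control libraries differed by less than 1.5-fold.

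Other genes of the same pathways were taken as lists of 10 to 23 genes, chosen with results of these data known. Over all tested genes, 13% were called higher and 8.97% lower in HOXA9 OFF against control, and the counts below stand beside these shares. Of the 16 tested genes of the lymphoid priming list, 5 rose and 2 fell in HOXA9 OFF against control. Flt3, the cytokine receptor that marks lymphoid-primed progenitors, fell by 6.05 ± 0.25 on the log2 scale, and Cd27, a costimulatory receptor, had 13 and 20 counts in control against 1 and 0 in HOXA9 OFF. Cd27 passed the low-count filter through control and CAF-1 OFF, where it was high. Notch1 rose by 1.25 on the log2 scale, and Mef2c, a factor of lymphoid and myeloid progenitors, rose from 5.14 ± 0.78 to 33.5 ± 4.37 CPM. The highest gene of the list, the chromatin remodeller Smarca4, was at 307 ± 16.5 CPM in control and 312 ± 0.29 CPM in HOXA9 OFF.

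In the recombination list 0 genes rose and 2 of 10 fell, Rag2 and Xrcc6 (Ku70), the latter by 0.73 ± 0.10. In either direction, 2 of 10 called is near the 22% called over all tested genes. The other 8, among them Prkdc and Lig4 of general DNA break repair, were not called. Among the factors of the B lineage list, 6 of 13 tested genes rose and 2 fell. Irf4, which acts in B cells and in macrophages and dendritic cells, had 6 and 12 counts in control and 605 and 586 in HOXA9 OFF. Id2, an inhibitor of E proteins, and Ikzf3 rose by 3.31 ± 0.33 and 2.92 ± 0.47, whereas Sox4 and Myb fell by 3.32 ± 0.26 and 0.68 ± 0.10. Of the E protein genes, partners of Ebf1 in B cells, Tcf12 was not called, and Tcf3 was lower by a log2 difference of -0.52 (edgeR FDR 0.0174) that was short of 1.5-fold.

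The B receptor list split as well, with 4 of 11 tested genes higher and 3 lower in HOXA9 OFF. Blnk, Ighm and Syk rose by 2.89, 2.13 and 0.75 on the log2 scale, of which Syk is also a kinase of myeloid receptors. Cd72 and Vpreb3 fell by 4.47 and 1.39.

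Of the T lineage list, 2 of 10 tested genes rose, Cd28 by 3.08 and Zbtb7b by 1.22, and 3 fell, with log2 fold changes of -3.16 for Thy1, -2.68 for Lck and -1.64 for Cd5. Of the 7 tested genes of natural killer and innate lymphoid cells, Klrk1 (NKG2D) rose from 7 and 0 counts in control to 239 and 158 in HOXA9 OFF, the group through which alone it passed the low-count filter, Rora rose by 0.91, and 0 fell. Nfil3, the highest gene of that list, was not called. The calls of Notch1, Cd27, Vpreb3, Thy1, Lck, Cd5 and Rora were each lost when at least 1 of the 6 libraries was left out. In CAF-1 OFF against control, 0 genes of the 6 lists were called. At an unadjusted p under 0.05 the largest difference was in Cd6, a T cell adhesion receptor that was picked for its values.

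**Figure D4:**
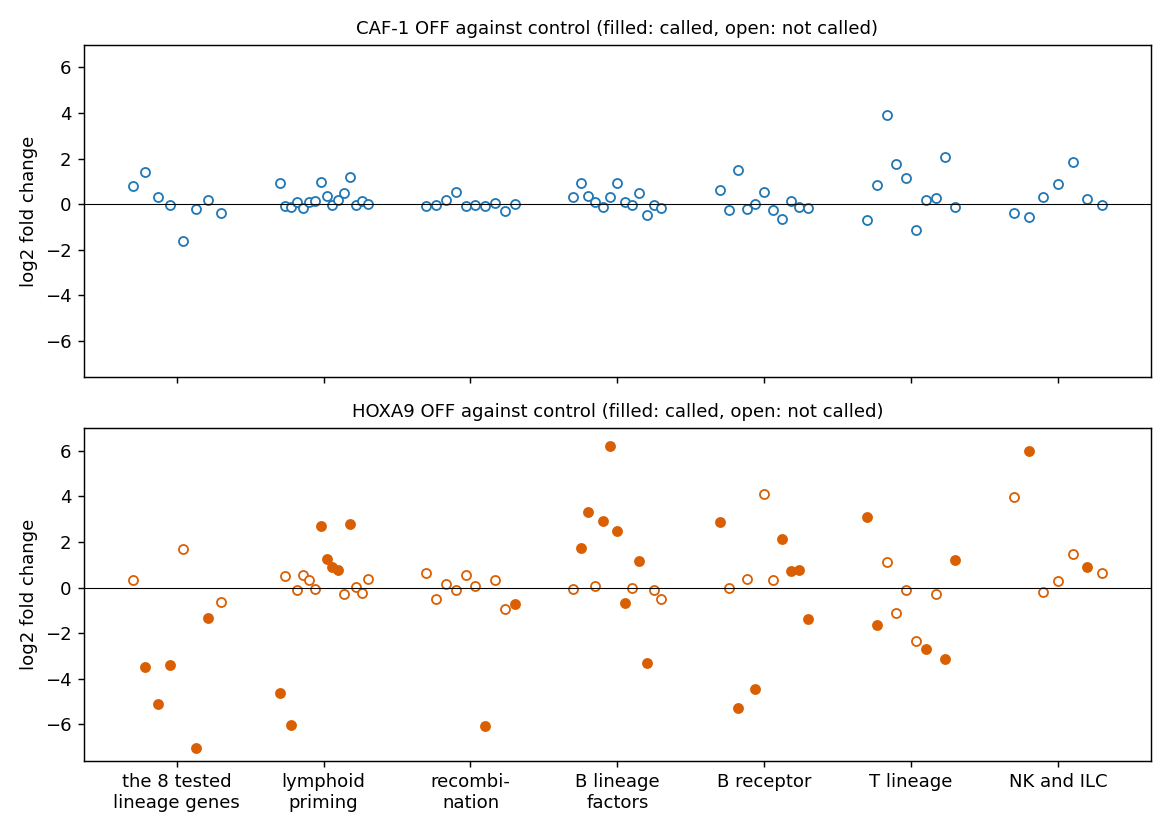
Differences from control, as log2 fold changes, of each tested gene in the set of 8 lymphoid lineage genes and in the 6 lists of related genes, in CAF-1 OFF (upper panel, blue) and HOXA9 OFF (lower panel, orange), with filled points for called genes. The upper panel has 0 filled points. In the lower panel the lineage genes and the recombination list have filled points below 0 alone, and the natural killer and innate list above 0 alone. The priming, B factor, B receptor and T lists have filled points on both sides.

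Among the lists, silence was most common in the T lineage list, in which 12 of 23 genes had at most 3 counts in every library. These included Cd3d, Cd3e, Cd3g, Cd4, Cd8a, Bcl11b and Ptcra. Of all 34199 gene symbols, 19883 had any count in the 6 libraries, and the rest were silent too. The share of all symbols with at most 3 counts was not taken, so the counts here do not show silence particular to lymphoid genes. In the B factor list 4 of 19 were silent (Pou2af1, Lef1, Bcl11a and Id3). In the B receptor list 4 of 17 were (Ms4a1, Cd24a, Blk and, with the limit given above, Vpreb2). In the natural killer and innate list 3 of 14 were (Ncr1, Tbx21 and Gzma), and in the priming list 2 of 18 (Ly6d and Ccr9). Cd24a and Blk had 0 counts in all 6 libraries. Reads that align to several places are left out, so silence by this rule does not show absence of RNA. Near-identical copies were looked at for Vpreb2 alone. All 10 recombination genes were above 3 counts in at least 1 library.

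The genes with the profile over the 6 libraries nearest to each of the 5 called genes were named by the root mean square difference of centred log2 CPM. For Ebf1 these were Paqr5 at 0.133, Gcnt4 at 0.197 and Aebp1 at 0.376 log2 units, and for Rag1 they were Grrp1 at 0.279, Paqr5 at 0.415 and Ebf1 itself at 0.444. For Igll1 they were Rbms3, Adamtsl2 and Asb10, at 0.291 to 0.358. Gimap4, at 0.315, was nearest to Dntt, with 24 and 16 counts in control, 65 and 75 in CAF-1 OFF and 0 and 2 in HOXA9 OFF, followed by Calcrl and B3gnt7. Irak1bp1 was nearest to Tcf7 at 0.117, followed by Tom1l1 and 2610109H07Rik. With 6 libraries in 3 groups, such distances describe these libraries alone.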

How the data were processed

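RNA-seq was measured in 6 libraries of iGMPs, 2 per group, grouped by their titles and treatment labels. The authors aligned reads to mouse mm9 with STAR and deposited raw read counts per gene symbol from HTSeq (tools and build also per the submitters' processing notes). The annotation, strand setting and overlap mode were not given in the sources used here, so overlapping genes are uncertain, and reads that align to several places are left out of such counts. The 5 tally lines of each file were kept out, of which reads in no gene made up 5.44% to 7.42% and ambiguous reads 2.7% to 3% of uniquely placed reads.

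The counts were tested with edgeR 4.0.16 (R 4.3.3, limma 3.58.1), by the quasi-likelihood test with 1 mean per group over all 6 libraries, filterByExpr (12460 genes) and TMM scaling (factors 0.954 to 1.03). A call needed at least 1.5-fold and a Benjamini-Hochberg FDR under 0.05. CPM used TMM-scaled library sizes. Standard errors came from the F statistic and intervals are 95%. Counting intervals of ratios are exact, and they and floors of 3 counts cover counting error only. The study mentions independent subclones and experiments but does not tie the libraries of a group to separate cultures, so p-values measure the spread between these libraries, which may be technical. The quasi-likelihood test of HOXA9 OFF against control alone was also run on simulated counts, with values not reported here.

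Gene models came from GENCODE for NCBIM37, and promoter starts from RefSeq, matched by symbol (12 windows for the 10 genes, each found once in NCBIM37). The members and lists were chosen with earlier results of these data known. Genes of the lists were named by a rule, which takes the 3 largest called rises and falls in each comparison with control and the highest gene of each list (some of these are not reported here), and for the 5 called genes the 3 nearest profiles with a mean CPM of at least 1. Partner, relative and overlapping genes, the E protein genes, Prkdc, Lig4, Cd6, Id1 and the motifs were chosen after values were seen. Alternatives were other scalings, DESeq2 1.42.0, the edgeR exact test, other filters and cutoffs, a fit to 4 libraries, a replicate block and leaving out each library.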

Additional observations from a re-analysis of the deposited data

How the results depend on the processing

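The members called were Ebf1, Rag1, Dntt, Igll1 and Tcf7 in both comparisons with HOXA9 OFF under every other scaling, test and filter tried, and CAF-1 OFF against control had 0 members called under any alternative. The exceptions were the 2-fold and FDR 0.01 cutoff, which left 3 (Dntt, Ebf1 and Rag1) in each HOXA9 OFF comparison, leaving out 1 library, which gave 4 to 5 in each, and Il7r, called against CAF-1 OFF without an expression filter (FDR 0.0133). The silent members were 0 at a limit of 1 count and 2 at a limit of 10 counts.

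Over all genes, the 4 calls in CAF-1 OFF against control became 192 with the DESeq2 Wald test, 236 with the edgeR exact test, 378 without an expression filter, 9 with only the 4 libraries compared and 0 at 2-fold and FDR 0.01, and ranged from 0 to 10 when 1 library was left out. HOXA9 OFF against control had 987 calls at 2-fold and FDR 0.01 and 1602 to 2840 with 1 library left out, and CAF-1 OFF against HOXA9 OFF had 948 and 1711 to 2718. The cause of these shifts was not tested.

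Replicate numbers were shared by the groups but not shown to pair the libraries, with correlations of same-numbered deviations of -0.178, 0.456 and 0.033 (control with CAF-1 OFF, control with HOXA9 OFF, and CAF-1 OFF with HOXA9 OFF). With a replicate block, CAF-1 OFF against control had 2 calls and the HOXA9 OFF comparison with control 2680, Il7r was also called against CAF-1 OFF (FDR 0.035), and Igll1 in CAF-1 OFF against control turned from -0.03 to 0.26. A block with crossed numbers, added after the data were seen, gave 71 calls in CAF-1 OFF against control and 0.14 for Igll1.

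Directions that turned were all of differences that were not called. In CAF-1 OFF against control the log2 difference ranged, with 1 library left out, from -2.66 to 0.88 for Il7r, -0.70 to 0.44 for Rag1, -0.61 to 0.95 for Igll1, -1.05 to 0.71 for Vpreb1, -0.14 to 0.57 for Tcf7, -0.40 to 0.31 for Rag2 and -0.34 to 0.13 for Flt3. In HOXA9 OFF against control it ranged from -0.31 to 1.39 for Cd79a, -1.33 to 0.43 for Vpreb1, -0.0893 to 0.145 for Cebpa, which was -0.0548 with library size alone, and -0.032 to 0.0702 for Smarca4, which was -0.0586 with library size alone, and in CAF-1 OFF against HOXA9 OFF from -0.13 to 0.90 for Cd79a. Groups left with 1 library were assumed to vary like the others. Depth limits what can be said of Pax5, Gata3, Il7r and Vpreb1, which had few counts.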

Other observations

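Among the related genes, several had higher levels in CAF-1 OFF than in control without being called, and they are named here after their values were seen. Cd6 had 2 and 2 counts in control, 31 and 28 in CAF-1 OFF and 4 and 4 in HOXA9 OFF. The summed counts of CAF-1 OFF were 16.1-fold those of control (95% counting interval 5.98 to 61.2), with a log2 difference of 3.92 ± 0.56 (edgeR FDR 0.0976). Cd6 passed the low-count filter through CAF-1 OFF alone. Id1, an inhibitor of E proteins, was at 7.94 ± 0.34 CPM in control and 15.0 ± 3.54 CPM in CAF-1 OFF. DESeq2 and the edgeR exact test each called Cd6 and Id1 in that comparison. Over all alternatives the FDR of Cd6 ranged from 1.65e-05 with the edgeR exact test to 0.595 without control replicate 2.

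Thy1 (CD90), a surface protein of thymocytes, had 494 and 154 counts in control, 1819 and 503 in CAF-1 OFF and 39 and 21 in HOXA9 OFF. The CAF-1 OFF libraries were far apart, and the log2 difference from control was 2.07 ± 0.62 (edgeR FDR 0.326). Over the alternatives that FDR ranged from 2.7e-06 without an expression filter, where Thy1 was called, to 0.855 without control replicate 2. Of the 10 tested genes of the T lineage list, 5 were called higher when CAF-1 OFF was set against HOXA9 OFF, namely Thy1, Cd6, Lck, Cd5 and Il2ra (the interleukin-2 receptor alpha chain), and 2 were called lower, Cd28 and Zbtb7b. Over all tested genes the shares were 9.56% higher and 12.6% lower. Il2ra had 5 and 3 counts in control, 11 and 14 in CAF-1 OFF and 1 and 2 in HOXA9 OFF. Like Cd6, it passed the low-count filter through CAF-1 OFF alone, so the count of 5 rests in part on genes that were tested because they were high there. The call of Il2ra was lost in the DESeq2 Wald test and when any 1 of the 6 libraries was left out. Without HOXA9 OFF replicate 1 the calls of Cd6, Lck and Cd5 were lost, without HOXA9 OFF replicate 2 those of Cd6 and Cd5, and without CAF-1 OFF replicate 1 that of Lck. Cd3d, Cd3e, Cd3g, Cd4 and Cd8a had at most 3 counts in all 6 libraries.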
